A study of Mus musculus with 6 samples.

Results

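Transcripts of p53, of its regulators and of its established target genes were examined in mouse Th9 cells treated with sorafenib. The 31 genes were taken by symbol from a list that was drawn up with earlier results of these data known. All 31 were among the 21233 genes of the count table, and all 31 passed the filter on low counts, which left 13255 genes. The cells came as 3 libraries of sorafenib-treated Th9 cells and 3 libraries of control Th9 cells that received no sorafenib. Th9 cells are CD4 T helper cells known for secreting interleukin 9, and sorafenib is a small-molecule inhibitor of RAF kinases and of several receptor tyrosine kinases. The labels used here give no dose, treatment time, mouse strain, sex or age, and do not say that replicates were separate cultures or animals. P-values therefore measure the spread between these libraries, which may be technical.

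The protein p53, encoded by Trp53 in mouse, is a transcription factor that is kept scarce by the ubiquitin ligase MDM2 and is stabilised when DNA damage or other stresses interrupt that control. It then raises transcription of genes that halt the cell cycle, repair DNA or start apoptosis, and of genes such as Mdm2 that restrain it again. Because p53 is controlled mostly at the level of the protein, its own transcript says little about its activity. In T cells p53 is known to limit clonal expansion after activation.

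Totals were 36981476 to 38126521 counts per library. Levels below are CPM (counts per 1000000 counts of the library, after scaling each library with a TMM factor), and tests are edgeR quasi-likelihood tests with Benjamini-Hochberg adjustment over all 13255 genes at a threshold of 0.05. T cell markers, Il9 among them, summed to 2018 to 2062 CPM in sorafenib libraries and 2220.1 to 2255 CPM in control libraries. Of the 9 genes 8 were found, of which 1, Il9, rose and 4 fell, against 8.51% and 9.43% of all tested genes. Of the 8, 6 had a negative log2 fold change, down to -0.55. Every sorafenib library lay below every control library for 6 of the 8, against 18% of all tested genes. The lineage cytokine Il9 averaged 266 ± 15.4 CPM in sorafenib cells and 192 ± 18.8 CPM in control cells (SD, n = 3 each, adjusted p = 0.00357). Cd4 averaged 496 ± 10.7 CPM in sorafenib cells and 476 ± 35.9 CPM in control cells (adjusted p = 0.671), while Cd3e, a chain of the T cell receptor complex, fell 1.24-fold (adjusted p = 0.0129). The Cd3e call was lost in 8 of the 18 alternatives at a threshold of 0.05, total counts, FPKM values and each of the sorafenib libraries left out among them (adjusted p up to 0.197). B cell markers summed to 28.4 to 31.3 CPM in sorafenib libraries and 7.29 to 15.5 CPM in control libraries over 6 of 6 genes, and 5 of the 5 tested rose. Ms4a1, a defining B cell gene, was at or near 0 in both groups, and the part of any of the marker lists in the results below was not tested. CD8 T cell markers summed to 8.89 to 11.1 CPM in sorafenib libraries and 6.17 to 7.09 CPM in control libraries over 2 of 2 genes, of which 1 rose. Neutrophil markers summed to 0.204 to 0.567 CPM in sorafenib libraries and 3.63 to 3.70 CPM in control libraries over 3 of 5 genes, and 1 of the 2 tested, Ly6g, fell. Myeloid markers summed to 1 to 1.2 CPM in sorafenib libraries and 0.436 to 0.666 CPM in control libraries over 5 of 6 genes, and the 1 gene tested did not pass. Markers of NK, stromal and erythroid cells summed to at most 1.71 CPM in sorafenib libraries and 2.56 CPM in control libraries, and the 2 genes tested did not pass. Control replicate 2 stood apart from the other control libraries. The Spearman correlation, across tested genes, between gene length and a gene's deviation from its group mean was -0.47 in that library, against 0.371 and 0.289 in control replicates 1 and 3 and -0.084 to 0.0802 in the sorafenib libraries. Genes are not independent replicates, and deviations within a group of 3 sum to 0.

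The comparison asked how transcripts of the p53 network differed in sorafenib-treated cells. Of the 31 genes, 15 rose and 1 fell with sorafenib, while 8.51% of all tested genes rose and 9.43% fell. In either direction 16 of the 31 passed the test, against 17.9% of all tested genes. Rises made up 47.4% of all calls with TMM factors and 64.4% with total counts as the only scaling, under which 16 p53 genes rose and 0 fell. The rises were modest, from 1.19-fold for Aen to 1.65-fold for Zmat3. No p53 gene rose 2-fold, and 6 rose by at least 1.5-fold. The median log2 fold change (sorafenib minus control) over the 31 genes was 0.252, against -0.0106 over all tested genes. Every sorafenib library was above every control library for 19 of the 31, a pattern that 18.3% of all tested genes showed, and below every control library for 2 of the 31, as for 18% of all tested genes, so that the groups did not overlap for 21 of the 31, against 36.3% of all tested genes. Since these are bulk samples, a change in the share of a cell type and a change of transcript per cell cannot be told apart. By role, 6 of 7 genes listed under mitochondrial apoptosis and 4 of 5 listed under death receptors and survival signalling rose. Cdkn1a and Mdm2, the best known targets, did not pass the test.

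**Figure D1:**
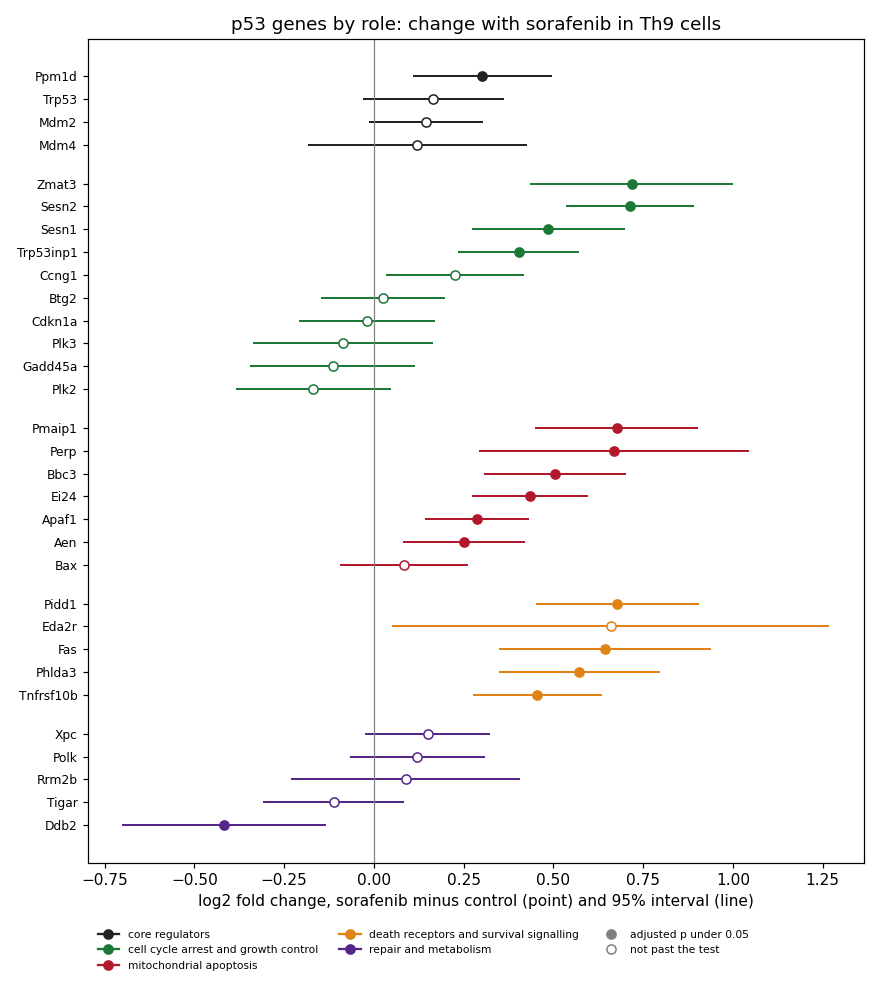
Log2 fold change (sorafenib minus control, horizontal axis) of each of the 31 p53 genes with its 95% interval, grouped and coloured by role, with filled points for genes past an adjusted p of 0.05. The filled points lie right of 0 for 15 genes and left of 0 for Ddb2 alone. Most of the 15 are listed under mitochondrial apoptosis or under death receptors and survival signalling.

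Among the 4 core regulators, 1 rose and 3 did not pass the test, while 8.51% of all tested genes rose. Trp53 itself had 99.7, 93.4 and 96 CPM in the sorafenib libraries, against 84.4, 76.9 and 96.5 CPM in the control libraries. The groups overlapped, since control replicate 3 lay above 2 of the sorafenib libraries (fold 1.12, adjusted p = 0.231), and the 95% interval of the fold ran from 0.981 to 1.28. Mdm2, which encodes the ligase that degrades p53 and is itself a p53 target, had 255, 225 and 233 CPM in the sorafenib libraries, against 209, 219 and 216 CPM in the control libraries. All sorafenib libraries were above all control libraries, but by so little that the test was not passed (fold 1.11, 95% interval 0.992 to 1.23, adjusted p = 0.196). Without control replicate 2 Mdm2 was called higher (adjusted p = 0.0421), as it was on filtered FPKM values (adjusted p = 0.0455). Mdm4, whose product binds p53 and blocks its activity, had 247, 242 and 252 CPM in the sorafenib libraries, against 278, 174 and 229 CPM in the control libraries. Its control libraries spread on both sides of the sorafenib libraries (adjusted p = 0.602), and its direction turned without control replicate 2 (log2 fold change -0.035). Ppm1d, which encodes the phosphatase WIP1 that switches off p53 signalling, had 29.1, 31.2 and 31.5 CPM in the sorafenib libraries, against 22.8, 25.5 and 26.1 CPM in the control libraries. It rose 1.23-fold (log2 fold change 0.30 ± 0.0856 SE, adjusted p = 0.0335) with no overlap between groups. The Ppm1d call was lost when any 1 of the libraries other than control replicate 2 was left out (adjusted p up to 0.152).

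Of the 10 genes of cell cycle arrest and growth control, 4 rose, 0 fell and 6 did not pass the test. Of all tested genes, 8.51% rose and 9.43% fell. Both sestrins rose, and the arrest genes Cdkn1a, Gadd45a and Btg2 did not pass the test. Sesn2, whose product senses leucine and restrains mTORC1 and which ATF4 also induces, had 121, 102 and 113 CPM in the sorafenib libraries, against 67.7, 66.6 and 71 CPM in the control libraries. The lowest sorafenib library was 1.43 times the highest control library, the widest gap among the 31 genes (log2 fold change 0.71 ± 0.0792 SE, adjusted p = 2.16e-04). Sesn1, its relative and a p53 target in many cell types, had 21.2, 20.1 and 20.8 CPM in the sorafenib libraries, against 13.3, 15.5 and 15.5 CPM in the control libraries. It rose 1.4-fold (log2 fold change 0.49 ± 0.0947 SE, adjusted p = 0.00548). Zmat3, which encodes an RNA-binding zinc finger protein, had 177, 192 and 187 CPM in the sorafenib libraries, against 136, 89.2 and 113 CPM in the control libraries. It had the largest fold of the 31 genes in this test (log2 fold change 0.72 ± 0.13 SE, adjusted p = 0.00324), with control replicate 2 the lowest library, and its call was lost on unfiltered FPKM values (adjusted p = 0.0573). Trp53inp1, which encodes a nuclear and autophagy-linked protein that promotes arrest and cell death, had 325, 349 and 374 CPM in the sorafenib libraries, against 276, 259 and 259 CPM in the control libraries. It rose 1.32-fold (log2 fold change 0.40 ± 0.0751 SE, adjusted p = 0.00432).

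Cdkn1a, which encodes the cyclin-dependent kinase inhibitor p21, had 647, 642 and 638 CPM in the sorafenib libraries, against 606, 712 and 634 CPM in the control libraries. The sorafenib libraries fell inside the range of the control libraries, and the 95% interval of the fold ran from 0.867 to 1.12 (adjusted p = 0.917). Its sign, negative in this test, turned positive with total counts, upper-quartile factors or FPKM values and without control replicate 2. Ccng1, which encodes cyclin G1, a recruiter of phosphatase to MDM2, had 608, 614 and 636 CPM in the sorafenib libraries, against 485, 579.8 and 523 CPM in the control libraries. All sorafenib libraries were above all control libraries (fold 1.17, 95% interval 1.03 to 1.33), but the adjusted p was 0.0992. DESeq2 called Ccng1 higher (adjusted p = 0.0339) and so did edgeR once control replicate 2 was left out (adjusted p = 3.56e-04). It was also called with total counts, on FPKM values and with the trend with gene length removed. Btg2, an antiproliferative gene, averaged 96.4 ± 7.77 CPM in sorafenib cells and 94.7 ± 3.56 CPM in control cells (adjusted p = 0.861). Gadd45a, a stress sensor that binds PCNA and p21, averaged 36.6 ± 2.93 CPM in sorafenib cells and 39.7 ± 4.88 CPM in control cells (adjusted p = 0.495). The polo-like kinase gene Plk2 averaged 131 ± 8.84 CPM in sorafenib cells and 147 ± 18.5 CPM in control cells (adjusted p = 0.267), and Plk3 averaged 38.9 ± 3.61 CPM in sorafenib cells and 41.3 ± 5.72 CPM in control cells (adjusted p = 0.659). Groups overlapped for all 4 of these genes.

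Of the 7 genes grouped under mitochondrial apoptosis 6 rose, against 8.51% of all tested genes, and the other, Bax, did not pass the test. The group was drawn broadly, and also holds Perp, Ei24 and Aen, whose products are described below by other sites or roles. Pmaip1, which encodes the BH3-only protein NOXA that neutralises MCL1, had 57.3, 48.3 and 55.8 CPM in the sorafenib libraries, against 30.3, 37.7 and 33 CPM in the control libraries. It rose 1.6-fold (log2 fold change 0.68 ± 0.10 SE, adjusted p = 0.00122). Bbc3, which encodes PUMA, the BH3-only protein that binds every antiapoptotic BCL2 relative, had 95.7, 81.5 and 87.4 CPM in the sorafenib libraries, against 56.5, 67.3 and 62.7 CPM in the control libraries. It rose 1.42-fold (log2 fold change 0.51 ± 0.088 SE, adjusted p = 0.00305). Perp, which encodes a membrane protein of p53-dependent death, had 28.7, 23.9 and 26 CPM in the sorafenib libraries, against 12.4, 21.4 and 15.8 CPM in the control libraries. It rose 1.59-fold (log2 fold change 0.67 ± 0.17 SE, adjusted p = 0.0198), and control replicate 2 came within 3 CPM of the lowest sorafenib library. The Perp call was lost without sorafenib replicate 1 or 3, without control replicate 3 and on unfiltered FPKM values (adjusted p up to 0.103). Ei24, a p53-induced gene whose product sits in the endoplasmic reticulum, had 119, 119 and 119 CPM in the sorafenib libraries, against 82.3, 95 and 87.2 CPM in the control libraries. Its 3 sorafenib libraries were nearly identical, and it rose 1.35-fold (log2 fold change 0.43 ± 0.0717 SE, adjusted p = 0.00225). Apaf1, which encodes the scaffold of the apoptosome, had 145, 148 and 150.3 CPM in the sorafenib libraries, against 126, 119 and 119 CPM in the control libraries. It rose 1.22-fold (log2 fold change 0.29 ± 0.0636 SE, adjusted p = 0.0107), and was not called once sorafenib replicate 3 was left out (adjusted p = 0.0788). Aen, which encodes an apoptosis-enhancing nuclease, had 89.1, 93.3 and 96.9 CPM in the sorafenib libraries, against 84.7, 74.6 and 75.2 CPM in the control libraries. It rose 1.19-fold (log2 fold change 0.25 ± 0.0754 SE, adjusted p = 0.0422). The Aen call was lost without any 1 of the sorafenib libraries, without control replicate 3 and on unfiltered FPKM values (adjusted p up to 0.201).

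Bax, the effector that opens the mitochondrial outer membrane, had 169.8, 172 and 169.6 CPM in the sorafenib libraries, against 155, 179 and 148 CPM in the control libraries. Control replicate 2 lay above all sorafenib libraries (fold 1.06, 95% interval 0.939 to 1.2, adjusted p = 0.521), and without that library Bax was called higher (adjusted p = 0.0192). Leaving out control replicate 2 gave 7 genes of this group that rose, and leaving out sorafenib replicate 3 gave 3. Leaving out sorafenib replicate 1 or control replicate 3, or using unfiltered FPKM values, gave 4. In the same order of fits, 15%, 4.12%, 4.26%, 5.71% and 4.87% of all tested genes rose.

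**Figure D2:**
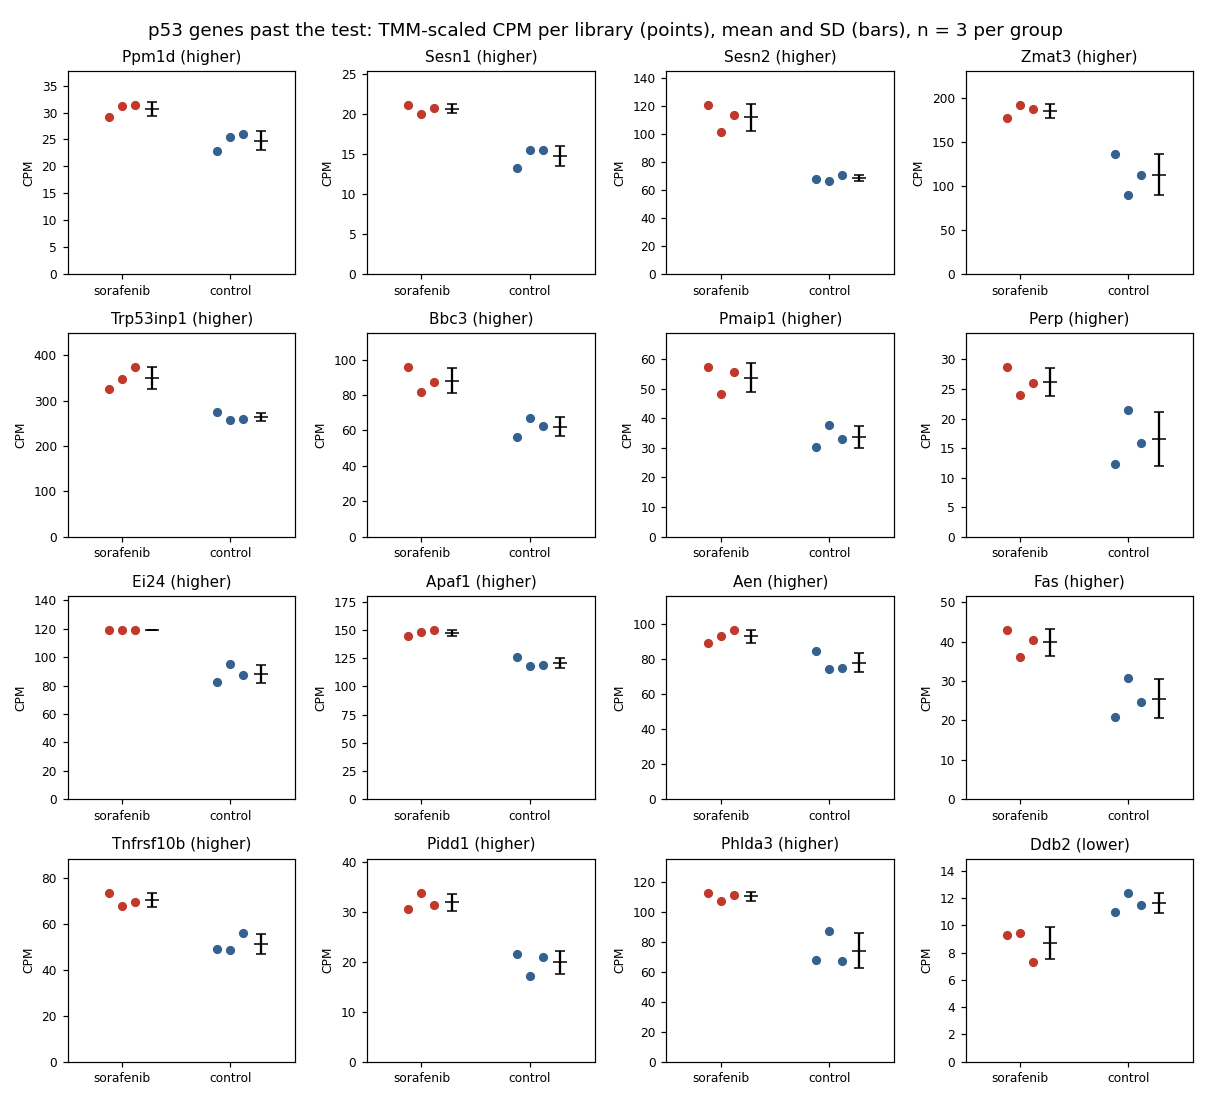
TMM-scaled CPM (vertical axis, starting at 0) of the 16 genes past the test, with 1 point per library, sorafenib left of control, and mean ± SD beside the points. The groups do not overlap in any panel, and Ddb2 is the gene whose sorafenib libraries lie below the controls.

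Of the 5 genes of death receptors and survival signalling, 4 rose, against 8.51% of all tested genes. All 5 had every sorafenib library above every control library, against 18.3% of all tested genes. Fas, the death receptor that removes activated T cells, had 43, 36.2 and 40.4 CPM in the sorafenib libraries, against 20.9, 30.9 and 24.8 CPM in the control libraries. It rose 1.56-fold (log2 fold change 0.64 ± 0.13 SE, adjusted p = 0.00703), with control replicate 2 the highest control. Tnfrsf10b, which encodes the mouse receptor for TRAIL and which CHOP also induces, had 73.6, 67.9 and 69.4 CPM in the sorafenib libraries, against 49.2, 48.4 and 56.1 CPM in the control libraries. It rose 1.37-fold (log2 fold change 0.46 ± 0.0798 SE, adjusted p = 0.00315). Pidd1, which encodes the platform protein of the PIDDosome that activates caspase-2, had 30.6, 33.9 and 31.3 CPM in the sorafenib libraries, against 21.5, 17.3 and 21.1 CPM in the control libraries. It rose 1.6-fold (log2 fold change 0.68 ± 0.10 SE, adjusted p = 0.00123). Phlda3, whose product competes with AKT for membrane lipids, had 113, 107 and 111 CPM in the sorafenib libraries, against 67.7, 87.2 and 67.3 CPM in the control libraries. It rose 1.49-fold (log2 fold change 0.57 ± 0.10 SE, adjusted p = 0.00314). These 4 calls held in all 18 alternatives at a threshold of 0.05, that of Fas only just without sorafenib replicate 1 (adjusted p = 0.04999). Eda2r, which encodes the receptor for ectodysplasin A2, was barely present, with 69, 61 and 61 counts in the sorafenib libraries and 43, 27 and 44 counts in the control libraries. Its fold was 1.58 with a wide 95% interval of 1.04 to 2.4 (adjusted p = 0.129).

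In the group of repair and metabolism, 0 of 5 genes rose and 1 fell, against 8.51% and 9.43% of all tested genes. Ddb2, which encodes the damage-binding subunit that starts nucleotide excision repair in chromatin, had 9.3, 9.47 and 7.33 CPM in the sorafenib libraries, against 11, 12.4 and 11.5 CPM in the control libraries. It fell 1.34-fold (log2 fold change -0.42 ± 0.13 SE, adjusted p = 0.0445), the one p53 gene called lower. With 1 library left out its log2 fold change stayed between -0.476 and -0.308. The call was lost in 11 of the 18 alternatives at a threshold of 0.05, without any 1 of the libraries other than control replicate 2 among them (adjusted p up to 0.196). Exons of Ddb2 overlap those of Acp2 on the opposite strand. Without a stated strand setting, reads from the shared stretch, whose length was not measured, cannot be assigned to 1 of the 2 genes with certainty. The same holds for exons of Ei24 and Gadd45a, which overlap Gm26787 and E230016M11Rik. Xpc, the other damage sensor of nucleotide excision repair, averaged 31.1 ± 1.19 CPM in sorafenib cells and 28.1 ± 0.918 CPM in control cells, with every sorafenib library above every control library (adjusted p = 0.221). Rrm2b, a subunit of ribonucleotide reductase, averaged 36.1 ± 3.75 CPM in sorafenib cells and 34 ± 7.38 CPM in control cells (adjusted p = 0.73). Polk, a translesion DNA polymerase, averaged 75.1 ± 3.21 CPM in sorafenib cells and 69 ± 6.79 CPM in control cells (adjusted p = 0.371). Tigar, which encodes a fructose bisphosphatase that diverts sugar from glycolysis, averaged 16.5 ± 0.56 CPM in sorafenib cells and 17.9 ± 0.697 CPM in control cells, with every sorafenib library below every control library (adjusted p = 0.428).

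The sorafenib libraries were tighter than the control libraries. The median coefficient of variation over the 31 genes was 4.28% in sorafenib libraries and 9.05% in control libraries, and 25 of 31 genes varied more among controls. Control replicate 2 was the lowest control library for 13 genes and the highest for 14. Relative to the mean of the other control libraries its log2 level ran from -0.568 for Eda2r to 0.603 for Perp. Among the 15 genes that rose it was the lowest control for 7 and the highest for 6. The number that rose was 18 without control replicate 2, 14 and 12 without control replicates 1 and 3, and 12, 13 and 11 without sorafenib replicates 1, 2 and 3. In the same order of libraries, the share of all tested genes that rose was 15%, 7.21% and 5.71%, then 4.26%, 5.55% and 4.12%. Of the 15 rises, 10 were called in all 18 alternatives at a threshold of 0.05: Sesn1, Sesn2, Trp53inp1, Bbc3, Pmaip1, Ei24, Fas, Tnfrsf10b, Pidd1 and Phlda3. Fas passed only just without sorafenib replicate 1 (adjusted p = 0.04999).

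**Figure D3:**
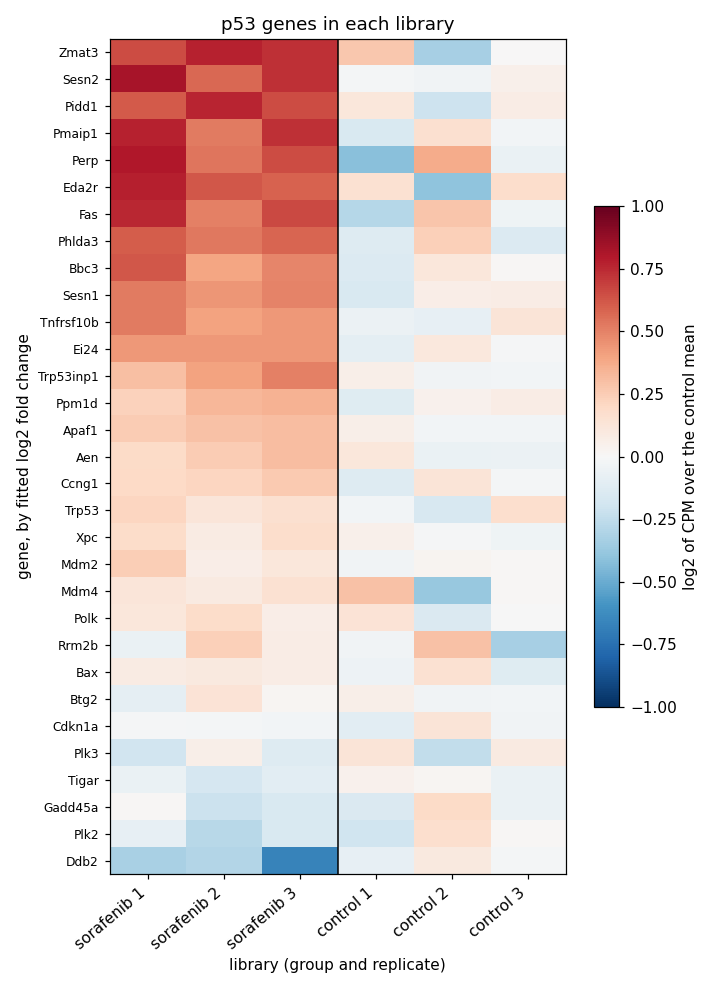
Log2 of CPM over the control mean (colour, red higher and blue lower) for the 31 p53 genes (rows, ordered by fitted fold change) in each library (columns, sorafenib left and control right). The upper rows are red in all 3 sorafenib libraries, control replicate 2 is the lowest or highest control for 27 of the 31 genes, and Cdkn1a and Btg2 stand near the bottom.

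Levels per gene length were read from the deposited FPKM values, which are not TMM-scaled. Cdkn1a was the most abundant of the 31 genes, with 324 FPKM in sorafenib cells and 310.5 FPKM in control cells. Next in sorafenib cells came Ccng1 with 186 FPKM and Bax with 183 FPKM, whose libraries overlapped, against 150.4 FPKM for Ccng1 and 163 FPKM for Bax in control cells. The 3 most abundant genes were thus among those that did not pass the test. Phlda3 was the most abundant of the genes that rose, with 77 FPKM in sorafenib cells and 49 FPKM in control cells. Trp53 had 43.2 and Mdm2 32.9 FPKM in sorafenib cells, against 36.6 FPKM for Trp53 and 28.2 FPKM for Mdm2 in control cells. Sesn2 held rank 8 in sorafenib cells with 43.3 FPKM and rank 13 in control cells with 25.1 FPKM. At the low end Tigar had 2.62 FPKM in sorafenib cells and 2.68 FPKM in control cells, and Eda2r had 0.231 FPKM in sorafenib cells and 0.139 FPKM in control cells. Levels over 10 FPKM were reached by 24 of the genes in sorafenib cells and by 22 in control cells.

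**Figure D4:**
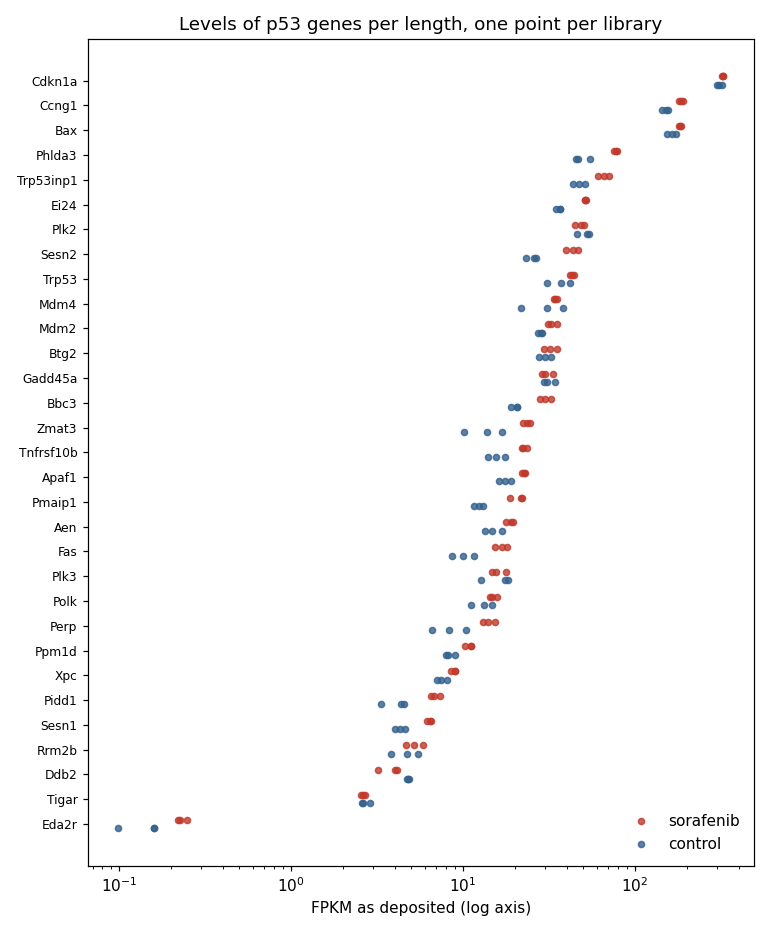
Deposited FPKM (horizontal log axis) of the 31 p53 genes, 1 point per library, sorafenib above control in each row, ordered by the sorafenib mean. Cdkn1a, Ccng1 and Bax lead the order, and Eda2r is the one gene under 1 FPKM.

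Promoters were read because p53 binds DNA through a half-site of 10 bases, usually as a pair, and because these genes differed in whether they rose. RefSeq promoter windows (GRCm38.p6, 250 bases before to 50 after an annotated start) were matched by symbol for 23 of the 31 genes, in 30 windows. The genes with no window were Perp, Tnfrsf10b, Ddb2, Zmat3, Xpc, Rrm2b, Pmaip1 and Trp53inp1. The search used the p53 half-site consensus, which reads as itself on the other strand, so that 1 pass covers both strands. An exact half-site lay in 12 of the 30 windows (40%), against 8.36% of all 32851 windows. By gene it lay in 11 of 23, against 2582 of all 27025, since 2 overlapping windows of Aen share 1 site. The genes were chosen as p53, its regulators and its established targets, so this excess is no result about sorafenib. An exact half-site was found in 4 of the 10 genes that rose and had a window and in 7 of the 13 that did not rise. Matches of paired half-sites, with up to 13 bases between them, up to 2 mismatches in the 20 bases and the inner CNNG of each half-site kept with A or T as N, lay in 3 windows (10%), against 2.12% of all windows. One of these genes, Sesn1, rose, and the other two, Cdkn1a and Bax, did not pass the test. A match is only a description of letters, and known p53 sites of some of these genes lie in introns or farther upstream, outside the window. Paired matches can contain exact single half-sites, which were counted in both searches. The paired matches are shown first, with the half-sites in capitals, on the strand of the gene, and 1 is given where 2 overlapped.
Bax, chr7:45467069-45467109 (minus strand): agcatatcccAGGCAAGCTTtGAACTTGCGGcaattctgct
Cdkn1a, chr17:29090918-29090957 (plus strand): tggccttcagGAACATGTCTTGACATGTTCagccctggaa
Sesn1, chr10:41887243-41887285 (plus strand): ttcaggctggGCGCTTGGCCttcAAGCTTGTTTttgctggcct
Single half-sites are shown for 3 genes that rose and for 4 that did not, in capitals with 10 bases on each side.
Ei24, chr9:36797325-36797354 (minus strand): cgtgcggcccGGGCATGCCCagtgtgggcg
Ppm1d, chr11:85311112-85311141 (plus strand): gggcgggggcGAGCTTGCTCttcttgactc
Aen, chr7:78895927-78895956 (plus strand): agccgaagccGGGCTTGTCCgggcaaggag
Mdm2, chr10:117710925-117710954 (minus strand): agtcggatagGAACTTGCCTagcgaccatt
Ccng1, chr11:40755452-40755481 (minus strand): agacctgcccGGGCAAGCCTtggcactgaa
Gadd45a, chr6:67037428-67037457 (minus strand): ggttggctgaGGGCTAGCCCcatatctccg
Trp53, chr11:69580274-69580303 (plus strand): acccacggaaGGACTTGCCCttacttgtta
The capitals of Cdkn1a form a nearly perfect pair with no spacer and 1 mismatch, in the window of 1 of its 2 annotated starts, and its fold lay in the 95% interval of 0.867 to 1.12 given above. The 10 bases of Ei24 and Ppm1d are exact half-sites in promoters of genes that rose 1.35-fold and 1.23-fold, and those of Mdm2, Ccng1, Gadd45a and Trp53 are exact half-sites in promoters of genes that did not pass the test. Sesn2, Fas, Pidd1, Phlda3, Bbc3 and Apaf1, which all rose, held no exact half-site in their windows.

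The wider pathway was read through lists that do not contain the 31 genes. Of 15 tested kinases and cofactors that activate p53, 1 rose and 0 fell (6.67% and 0%, against 8.51% and 9.43% of all tested genes). That gene was Chek2, which encodes a checkpoint kinase that phosphorylates p53, with 14.8, 16 and 15.3 CPM in the sorafenib libraries, against 10.7, 9.79 and 10.5 CPM in the control libraries (log2 fold change 0.57 ± 0.10 SE, adjusted p = 0.00254). Of 3 tested other p53 ligases and family members 0 were called by edgeR, 0 had an unadjusted p under 0.05, and 0 were called by DESeq2 or limma-voom. Without control replicate 2, 1 of these 3, Huwe1, was called lower, and of the 15 activating genes 2 were called higher and 2 lower. In that fit 2035 of all 13591 tested genes were called higher and 2290 lower. With total counts or upper-quartile factors 2 of the 15 were called higher, against 11.3% and 10.3% of all tested genes. Trim24 averaged 46.5 ± 2.34 CPM in sorafenib cells and 50.5 ± 4.26 CPM in control cells (adjusted p = 0.368) and Rchy1 averaged 66.2 ± 2.1 CPM in sorafenib cells and 63.5 ± 7.32 CPM in control cells (adjusted p = 0.702). Among 47 other p53 targets tested, 19 rose and 5 fell, with a median log2 fold change of 0.213. Over the alternatives 13 to 24 rose and 3 to 7 fell, with 13 rises without sorafenib replicate 3, 24 without control replicate 2, and 3 falls on unfiltered FPKM values. The share of all tested genes that rose was 4.12% without sorafenib replicate 3 and 15% without control replicate 2. On unfiltered FPKM values 572 of all 21233 tested genes fell. Thbs1, which encodes the matrix protein thrombospondin 1, had 16.1, 11.5 and 13.6 CPM in the sorafenib libraries, against 2.81, 3.66 and 3.62 CPM in the control libraries (log2 fold change 2.03 ± 0.16 SE, adjusted p = 2.95e-05). Gtse1, whose product sits on microtubules and restrains p53 in G2 phase, rose 1.7-fold (adjusted p = 6.55e-05), and Psrc1, a spindle gene, rose 1.52-fold (adjusted p = 1.39e-04).

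Downstream of the BH3-only genes, 4 of 18 caspase and BCL2 family genes rose and 2 fell. These were 22.2% and 11.1%, against 8.51% and 9.43% of all tested genes. Casp6, which encodes caspase-6, fell 1.76-fold (adjusted p = 2.62e-04). The antiapoptotic gene Bcl2a1b rose 3.0-fold, with near-identical relatives that may share its reads (adjusted p = 7.44e-05). Without control replicate 2 the numbers were 8 that rose and 4 that fell, and with total counts or upper-quartile factors 7 rose. Without control replicate 2, 2035 of all 13591 tested genes rose and 2290 fell. With total counts and upper-quartile factors, 11.3% and 10.3% of all tested genes rose.

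Genes of the G2 and M phases that the DREAM complex represses downstream of p53 and p21 were measured beside them. Of 22 tested, 11 rose and 0 fell (50% and 0%, against 8.51% and 9.43% of all tested genes). All 22 had a positive log2 fold change, as had 6399 of all 13255 tested genes. The median was 0.404, against -0.0106 over all tested genes. Ccnb1, which encodes cyclin B1, had 15.7, 18.9 and 19.2 CPM in the sorafenib libraries, against 13, 11.8 and 12.8 CPM in the control libraries (log2 fold change 0.52 ± 0.11 SE, adjusted p = 0.00759). Bub1b, Ccnb2 and Nek2 rose 1.42-fold, 1.41-fold and 1.63-fold (adjusted p = 0.00815, 0.0105 and 0.011). The calls of Ccnb1, Ccnb2 and Nek2 were lost without sorafenib replicate 3, that of Nek2 also without sorafenib replicate 2, and those of Bub1b and Nek2 on unfiltered FPKM values. Foxm1, which drives such genes, averaged 13.7 ± 1.77 CPM in sorafenib cells and 10.4 ± 2.4 CPM in control cells (adjusted p = 0.137). Leaving out sorafenib replicates 1, 2 and 3 in turn gave 7, 5 and 1 rises, leaving out control replicate 3 gave 5, and unfiltered FPKM values gave 4. In the same order of fits, 4.26%, 5.55%, 4.12%, 5.71% and 4.87% of all tested genes rose.

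Targets of ATF4 and CHOP, the transcription factors of the integrated stress response, were measured because these factors are known to raise several of the genes described here, Sesn2, Pmaip1, Bbc3 and Tnfrsf10b among them. Of 22 tested, 14 rose and 2 fell (63.6% and 9.09%, against 8.51% and 9.43% of all tested genes). The median log2 fold change was 0.392, against -0.0106 over all tested genes. Slc7a3, a transporter of cationic amino acids, had 26.1, 21.9 and 22.4 CPM in the sorafenib libraries, against 9.87, 11.5 and 9.65 CPM in the control libraries (log2 fold change 1.18 ± 0.11 SE, adjusted p = 7.60e-05). Cth, Aldh1l2 and Phgdh, enzymes of cysteine, folate and serine metabolism, rose 2.36-fold, 2.05-fold and 1.7-fold (adjusted p = 8.13e-04, 4.77e-04 and 0.00106). Atf4 itself averaged 603 ± 34.2 CPM in sorafenib cells and 604 ± 65.2 CPM in control cells (adjusted p = 0.988), and Ddit3, which encodes CHOP, averaged 112 ± 17.3 CPM in sorafenib cells and 95.3 ± 5.87 CPM in control cells (adjusted p = 0.168). Leaving out sorafenib replicates 1 and 3 in turn gave 7 and 6 rises, and leaving out control replicate 1 or 3 gave 8. In the same order of fits, 4.26%, 4.12%, 7.21% and 5.71% of all tested genes rose. Both falls were lost on unfiltered FPKM values. Whether p53 or these factors moved the shared genes was not tested, since no library lacked either.

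**Figure D5:**
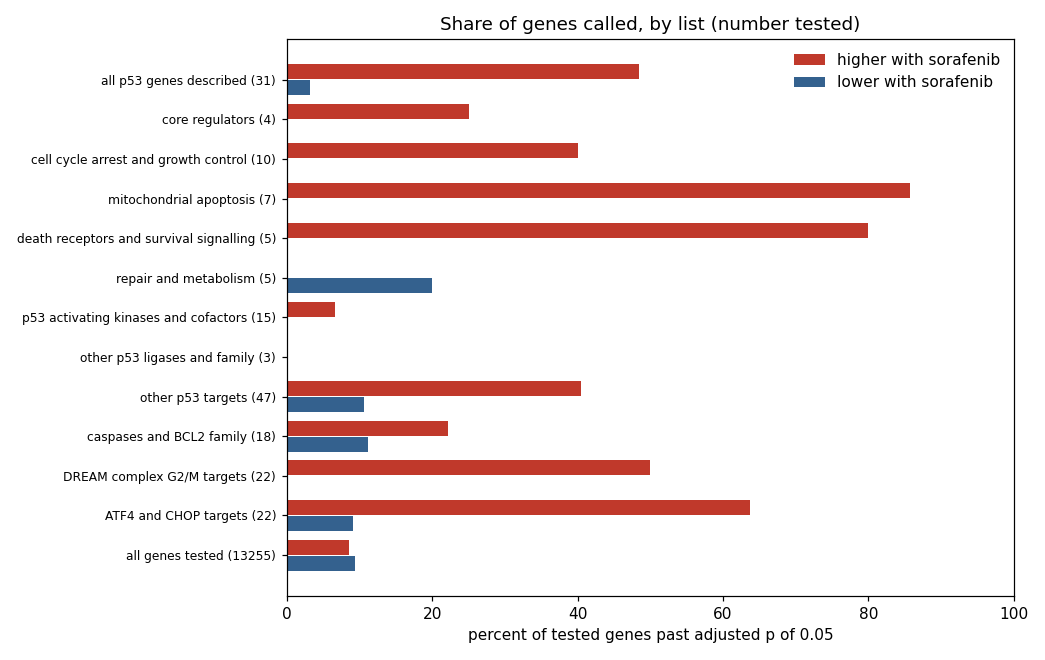
Percent of tested genes (horizontal axis, from 0) that rose (red) or fell (blue) with sorafenib at an adjusted p under 0.05, for all 31 p53 genes, their 5 roles, the 6 related lists and all tested genes, with the number tested in parentheses. Bars of the groups named mitochondrial apoptosis (6 of 7) and death receptors and survival signalling (4 of 5) reach farthest. Over all tested genes the bars show 8.51% higher and 9.43% lower.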

How the data were processed

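Gene counts, as whole numbers, and FPKM were deposited by the authors for all 6 libraries, and columns were matched to samples by their titles. RNA was isolated with TRIzol, per the labels' protocols. The submitters' processing notes name fastp, HISAT2, HTSeq, DESeq2, R 3.2.0 and the build GRCm39, without roles. No strand setting or annotation is given in those notes, so counts of genes that overlap in GENCODE M21 are uncertain. Exons of 8 of the 31 genes overlap another gene there. For Ddb2, Ei24 and Gadd45a the other gene is in the count table, and for Bax, Cdkn1a, Plk3, Rrm2b and Tigar it is not. Bax overlaps Gm45808 on the same strand. Deposited FPKM was checked to be the count over column total and a fixed length per gene.

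Low counts were removed with filterByExpr (13255 of 21233 genes left), and TMM-scaled counts were tested with edgeR 4.0.16 in R 4.3.3 (robust quasi-likelihood F test, no covariate, 4 residual degrees of freedom), adjusting by Benjamini-Hochberg over all tested genes. SE and 95% intervals were derived from the F statistic. The test was tested on simulated data. Alternatives were other scalings (total counts, upper-quartile factors, or the size factors of DESeq2), no filter, a filter of 1 CPM in 3 libraries, DESeq2 1.42.0, limma 3.58.1 (voom; trend on log2(FPKM + 1), filtered at a mean of 0.5 FPKM or not, and on filtered log2(FPKM + 0.1)), a replicate block, each library left out, a threshold of 0.01, and, chosen after seeing the data, removal of each library's trend with gene length. No 2 libraries agreed within sampling noise.

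Promoter sequences are from RefSeq (GRCm38.p6), a build other than that of the counts. Values of each library are given for the core regulators and every p53 gene past the test. From each related list, up to 4 called genes with the smallest adjusted p are named, or 2 where none was called, and Il9, Cd3e, Cd4, Atf4, Ddit3 and Foxm1 whatever their result. Some genes named by that rule are not reported here. The 31 genes and all lists were chosen with earlier results of these data known. Libraries held 36981476 to 38126521 counts, and 3 counts correspond to 0.0766 to 0.0871 CPM, a limit that covers counting error only.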

Additional observations from a re-analysis of the deposited data

How the results depend on the processing

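Limits come from 3 libraries per group and from 1 control library that stands apart, and counts were lowest for Eda2r among the 31 genes. The count of p53 genes called, 16, was 11 to 19 over the alternatives and that of rises, 15, was 11 to 18. The count of falls, 1, was 0 with total counts, upper-quartile factors, the replicate block, the 3 FPKM fits or a threshold of 0.01, and 0 to 1 with a library left out. All genes called, 2378, were 1243 to 4325 with a library left out (4325 without control replicate 2, and 1294, 1549 and 1243 without sorafenib replicates 1, 2 and 3), and 1227 at a threshold of 0.01. Genes that rose, 1128, were 559 to 2035 with a library left out and 551 at a threshold of 0.01. Genes that fell, 1250, were 684 to 2290 with a library left out, 826 with total counts, 748 on log2(FPKM + 1), 572 on the same without a filter, 740 on log2(FPKM + 0.1) and 676 at a threshold of 0.01. Rises made up 47.4% of calls, against 64.4% with total counts and 65.3% on log2(FPKM + 1).

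With the replicate number as a block, 2139 genes were called, 1031 of them higher, and 14 p53 genes rose and 0 fell. Under the block the calls of Aen (adjusted p = 0.0751) and Ddb2 (adjusted p = 0.0505) were lost and Foxm1 was called higher (adjusted p = 0.0423), and no other gene named changed its call. Deviations of same-numbered libraries correlated at -0.0627, 0.152 and 0.102 across genes for numbers 1, 2 and 3, and not every library correlated best with its own number, so the numbers were not taken as pairs.

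Signs turned, all without a call, for 5 genes named, as log2 fold changes. Cdkn1a turned to 0.061 with total counts, 0.018 with upper-quartile factors, 0.062 on log2(FPKM + 1), filtered or not, and 0.062 on log2(FPKM + 0.1). Atf4 turned to 0.077 with total counts, 0.033 with upper-quartile factors, 0.0057 with no filter, 0.00089 with the replicate block, 0.077 on log2(FPKM + 1), filtered or not, 0.078 on log2(FPKM + 0.1) and 0.010 with the length trend removed. With a library left out, Cdkn1a ran from -0.068 to 0.053, Atf4 from -0.083 to 0.075, Mdm4 from -0.035 to 0.292, Btg2 from -0.029 to 0.081 and Rrm2b from -0.044 to 0.264. The cause of these turns was not tested.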
